A study of Mus musculus with 5 samples.

Results

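Mitosis and kinetochore genes were followed in splenic germinal center B cells of mice with floxed Relb and Nfkb2, genes of a pair of NF-κB transcription factors, and in control littermates. The set was chosen by name and holds 40 genes for mitotic cyclins and kinases, the spindle checkpoint, the kinetochore, kinesins, the spindle and cytokinesis, among 38924 genes in the deposited table. The table gives names in capitals (CENPE, CENPF, MKI67, PRC1, CENPA), written here in mouse style. All 40 were found, each in 1 row, and all 40 were among the 13242 genes that passed the minimum mean value of 10 for testing.

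WT libraries (n = 3) came from Cg1-Cre mice, and DKO libraries (n = 2) came from relbfl/flnfkb2fl/fl mice with Cg1-Cre. The Cre allele is therefore shared by both genotypes. It is driven by the locus of the IgG1 constant region, so deletion begins in B cells that transcribe that locus. Both genotypes were 12 weeks old, had been immunized with sheep red blood cells and were sampled on day 7. The series title calls the sorted cells eGFP+. The labels do not say which allele carries eGFP, so whether cells that have not recombined were among those sorted is not known. The labels number the libraries within each genotype without saying that each came from its own mouse, so p-values measure the spread between these libraries.

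Germinal center B cells are among the fastest dividing cells of the adult mouse. They divide mainly in the dark zone of the germinal center, where Cxcr4-high centroblasts cycle after selection by T cells in the light zone. Entry into mitosis is driven by Cdk1 with cyclins A and B, attachment of chromosomes to the spindle is sensed at the kinetochore by the checkpoint kinases, and the anaphase-promoting complex then destroys cyclin B and securin. The genes for these proteins are transcribed together late in the cell cycle, under the MuvB complex, which binds the cell cycle genes homology region (CHR) and works with B-Myb and FoxM1, and under NF-Y, which binds CCAAT boxes.

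Both elements were common in the promoters of the 40 genes. RefSeq promoters of build GRCm38.p6, from 250 bases before to 50 after a start site, were found for 34 of the 40, and a gene with more than 1 start site counted once. The CHR was searched as TTTGAA and the NF-Y box as CCAAT, each on both strands, and neither string contains the other. Other forms of these elements were not searched, so presence and absence below refer to these strings. The CHR was present in 25 of 34 promoters, or 73.5%, against 20.2% of all 27025 genes with a promoter and 14.4% of the 8812 tested genes with one. From 100 bases before to 50 after the start it was present in 24 of 34, or 70.6%, against 9.23% of all genes. The NF-Y box was present in 26 of 34, or 76.5%, against 41.1% of all genes. Both stood together in 21 of 34, or 61.8%, against 8.97%. Among DNA replication and S phase genes, which are transcribed earlier in the cycle, the CHR was present in 4 of 30 promoters, or 13.3%, and the NF-Y box in 18 of 30. Related lists lay between, with a CHR in 61.9% of 21 promoters of other spindle and motor genes, 54.5% of 11 of condensin and cohesin, 35.7% of 28 of other kinetochore genes and 22.7% of 22 of mitotic entry and exit regulators. Among germinal center B cell markers it was present in 4 of 8. Such matches describe the letters in these windows and do not show binding.

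**Figure D1:**
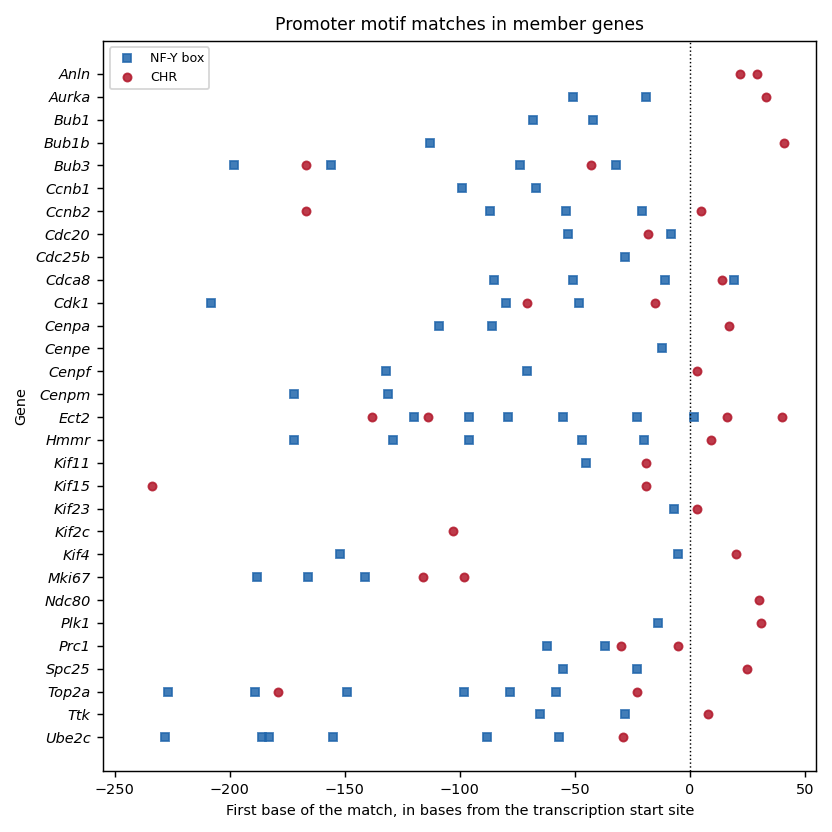
Matches to the CHR (red circles) and the NF-Y box (blue squares) in promoters of member genes, with 1 row per gene with a match. The horizontal axis gives the first base of each match in bases from the transcription start site, which is the dotted line, and genes with more than 1 start site show the matches of each. In 23 genes a CHR lay from 50 bases before to 50 after the start.

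Promoters of 8 genes on which the results below turn are shown from 150 bases before to 20 after the start site, read 5′ to 3′ on the strand of the gene, with capitals for CHR and NF-Y matches. The first 5 belong to genes that moved with the bulk of the set, and the last 3 to the genes whose levels went another way.
Ube2c, chr2:164769779-164769948, plus strand: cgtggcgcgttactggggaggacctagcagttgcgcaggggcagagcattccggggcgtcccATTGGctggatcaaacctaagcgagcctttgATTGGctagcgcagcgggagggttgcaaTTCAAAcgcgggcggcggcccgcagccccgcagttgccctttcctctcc
Cdc20, chr4:118437324-118437493, minus strand: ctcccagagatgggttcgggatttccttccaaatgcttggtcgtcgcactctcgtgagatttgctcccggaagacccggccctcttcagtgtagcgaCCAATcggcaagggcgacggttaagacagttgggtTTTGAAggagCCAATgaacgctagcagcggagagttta
Ccnb2, chr9:70421535-70421704, minus strand: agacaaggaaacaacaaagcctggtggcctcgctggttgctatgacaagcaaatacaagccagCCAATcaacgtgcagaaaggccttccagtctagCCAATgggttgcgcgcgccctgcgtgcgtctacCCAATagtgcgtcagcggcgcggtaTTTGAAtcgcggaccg
Top2a, chr11:99024170-99024339, minus strand: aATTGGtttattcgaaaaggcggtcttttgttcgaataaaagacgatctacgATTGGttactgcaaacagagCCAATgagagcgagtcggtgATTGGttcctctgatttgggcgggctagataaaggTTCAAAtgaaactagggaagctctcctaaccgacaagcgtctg
Kif11, chr19:37376232-37376401, plus strand: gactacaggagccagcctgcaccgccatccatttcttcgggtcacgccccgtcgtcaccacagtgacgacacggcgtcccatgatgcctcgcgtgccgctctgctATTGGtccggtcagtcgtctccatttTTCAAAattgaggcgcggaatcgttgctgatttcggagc
Cenpf, chr1:189688067-189688236, minus strand: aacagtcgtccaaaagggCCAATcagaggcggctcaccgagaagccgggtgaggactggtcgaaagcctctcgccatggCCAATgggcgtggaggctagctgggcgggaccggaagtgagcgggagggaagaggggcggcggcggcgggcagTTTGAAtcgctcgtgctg
Cenpe, chr3:135212413-135212582, plus strand: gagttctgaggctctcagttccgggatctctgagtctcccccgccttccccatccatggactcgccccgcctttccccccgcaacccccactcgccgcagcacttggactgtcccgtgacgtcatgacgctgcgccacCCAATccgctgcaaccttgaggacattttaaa
Mki67, chr7:135716360-135716529, minus strand: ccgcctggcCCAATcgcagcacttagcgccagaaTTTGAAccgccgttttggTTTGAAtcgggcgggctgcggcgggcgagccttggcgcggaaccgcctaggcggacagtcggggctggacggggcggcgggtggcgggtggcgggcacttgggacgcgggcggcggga

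In the first 5, a CHR lies downstream of at least 1 NF-Y box and close to the start site. Its first base is at −29 in Ube2c, −18 in Cdc20, +5 in Ccnb2, −23 in Top2a and −19 in Kif11. Cenpf has the same arrangement, with the CHR at +3. Mki67 carries a pair of CHR matches farther upstream, at −116 and −98. The Cenpe window holds an NF-Y box but no match to TTTGAA. These promoters were picked from those that hold a match, so their matches do not tell the genes apart. Members with no CHR match, among them Bub1, Ccnb1 and Nusap1, also moved with the bulk of the set.

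The libraries held 34.0 to 57.6 M reads, of which mitochondrial ribosomal RNA took 47.0% to 70.9%, and genes outside the mitochondrial genome kept 15.4 to 17.7 M reads. The smallest member count was 308 reads, and since the RNA was amplified before sequencing, read counts give only a lower bound on the counting error. Relb was at 136, 171 and 117 normalised counts in WT replicates 1 to 3 and at 56.9 and 10.7 in DKO replicates 1 and 2. Nfkb2 had 657, 601 and 445 in the WT libraries and 298 and 73.5 in the DKO libraries. Both targeted genes had lower values in both DKO libraries, with less left in replicate 2, at fold changes of −2.43 ± 0.63 (SE) and −1.91 ± 0.51 on the log2 scale (adjusted p = 0.823 for each, limma). Whether the counted reads lie in the floxed exons is not given in the labels. Of 12 germinal center B cell markers, 11 passed the minimum, with Bcl6 at 9681 to 11763, while Mef2b was listed at 0 in every library. Genes of other lymphocytes set WT replicate 2 and DKO replicate 1 apart from the other 3 libraries. Both of these libraries were above the other 3 in 13 of 15 T cell markers and 6 of 8 NK cell markers. The same held for 8 of 8 naive B cell markers. The share of all tested genes with that order was not counted. Cd3e, a chain of the T cell receptor complex, measured 10.7, 363 and 7.69 in WT, against 163 and 26.4 in DKO.

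Mitosis and kinetochore transcripts were abundant in both genotypes. In normalised counts, which also depend on transcript length, even the lowest member, Cenpm, had a mean above that of 55.9% of tested genes. Per kilobase of the longest coding transcript, the WT means were highest for the proliferation marker Mki67 at 7548 normalised counts and for Top2a at 6204. Top2a, a topoisomerase that untangles sister chromatids, was followed by the cyclin gene Ccna2 at 1926. Lowest per kilobase were Cdk1 at 220.0 and Spc25 at 260.0, an order that depends on the annotated length, 4375 bases for Cdk1. In normalised counts Cdk1 had a mean of 992 over all libraries, above that of 76.4% of tested genes.

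As a set these genes did not separate the genotypes. Fold changes, given as log2(normalised count + 1) in DKO minus WT, were below 0 in 26 of 40 members and in 50% of all tested genes. The median was −0.09 over the members and 0.00 over all tested genes. None of the 40 passed in limma (smallest adjusted p = 0.823), and the test called 0% of all tested genes. At an unadjusted p under 0.05 there were 2 members, Cenpe and Cenpf, both lower in DKO, or 5% of the set against 6.06% of all tested genes. In that direction the share of all tested genes was 2.37%, and higher in DKO were 0 members against 3.69%. EdgeR and DESeq2 on the recovered reads also called none of the 40 after adjustment, against 0% and 0.219% of all tested genes. At an unadjusted p under 0.05 each found the same 2 members, against 5.65% and 6.77% of all tested genes. Outside Cenpe and Cenpf, fold changes ran from −0.30 for Ttk to 0.34 for Prc1. In 36 members the 95% confidence interval of the log2 fold change lay between −1 and 1. For each gene, differences inside its interval stayed compatible with the values of the 5 libraries.

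**Figure D2:**
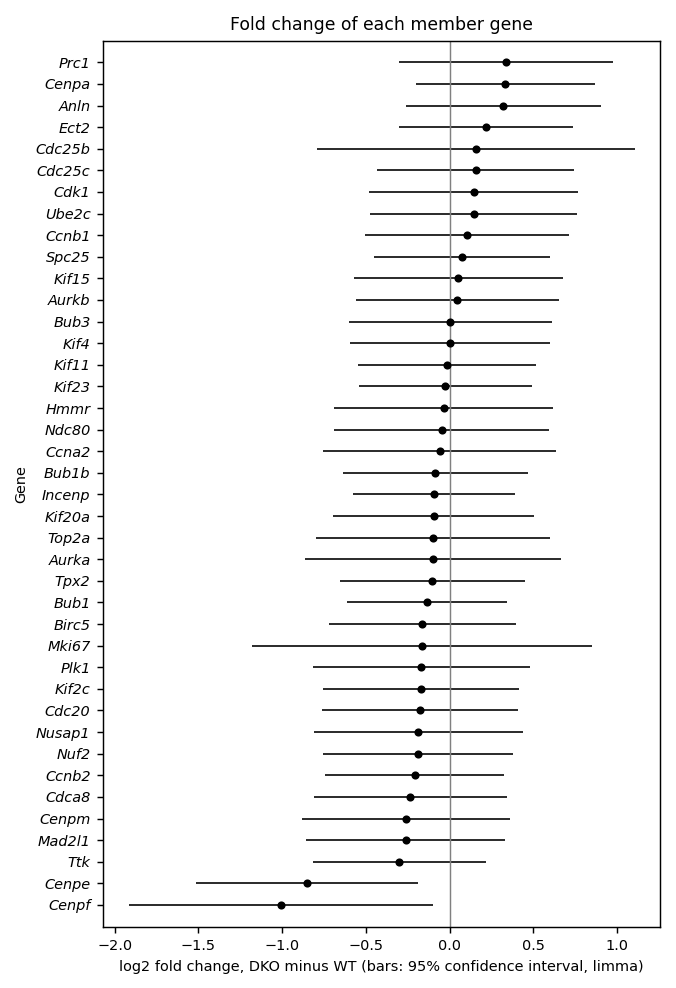
Fold change of each of the 40 genes as log2, DKO minus WT, on the horizontal axis, with genes on the vertical axis ordered by it. Points are limma estimates from 3 WT and 2 DKO libraries, and bars are 95% confidence intervals. Bars of Cenpe and Cenpf lie below 0 before adjustment for the number of genes, and the other 38 cross it.

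The levels followed the library instead. In 34 of 40 members both WT replicate 2 and DKO replicate 1 were below each of the other 3 libraries, an arrangement found in 15.9% of tested genes. WT replicate 2 was the lowest WT library in 37 of 40 members, against 35.2% of tested genes. DKO replicate 1 was below DKO replicate 2 in 37 of 40, against 48.4%. Cenpe, Cenpf and Mki67 were the exceptions to both counts. In these 3 genes WT replicate 3 was the lowest WT library, as in 34.9% of tested genes. The mean log2 level of the 40 genes was 11.43, 10.97 and 11.46 in WT replicates 1 to 3 and 10.99 and 11.43 in DKO replicates 1 and 2. The difference between the genotype means, −0.08, was smaller than the SD within either genotype, 0.27 in WT and 0.31 in DKO. Between libraries of a genotype the gaps were larger. The median member was lower by 0.45 (log2) in WT replicate 2 than in the mean of WT replicates 1 and 3, and higher by 0.50 in DKO replicate 2 than in DKO replicate 1, where the medians of all tested genes were 0.01 and −0.02.

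The lists of other lymphocytes went the opposite way. Relative to their mean over the 5 libraries, log2 levels of T cell markers deviated by −0.84, 2.06 and −1.63 in WT replicates 1 to 3 and by 1.18 and −0.78 in DKO replicates 1 and 2. Deviations of naive B cell markers were −0.69, 1.23 and −0.58 in WT, with 0.81 and −0.77 in DKO. Summed over the list, T cell markers ranged from 1504 to 2801 normalised counts in WT and from 1387 to 2169 in DKO. No T cell marker was at 0 in WT replicate 2 or DKO replicate 1, and 2 of 15 were at 0 in each of the other 3 libraries. Plasma cell markers did not share this order, with mean log2 levels of 7.93, 7.64 and 7.27 in WT and 7.32 and 6.97 in DKO. WT replicate 2 and DKO replicate 1 also had the fewest reads, 34.0 and 35.2 M against 44.9 to 57.6 M in the other 3. Their share of mitochondrial ribosomal RNA was the lowest, 51.6% and 47.0% against 60.6% to 70.9%. Reads outside the mitochondrial genome numbered 15.4, 15.5 and 15.5 M in WT replicates 1 to 3. DKO replicates 1 and 2 had 17.7 and 17.6 M of these. The part of other cell types, depth or ribosomal RNA in the order of the mitosis genes was not tested. In bulk RNA, fewer dividing cells and less RNA per dividing cell cannot be told apart.

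**Figure D3:**
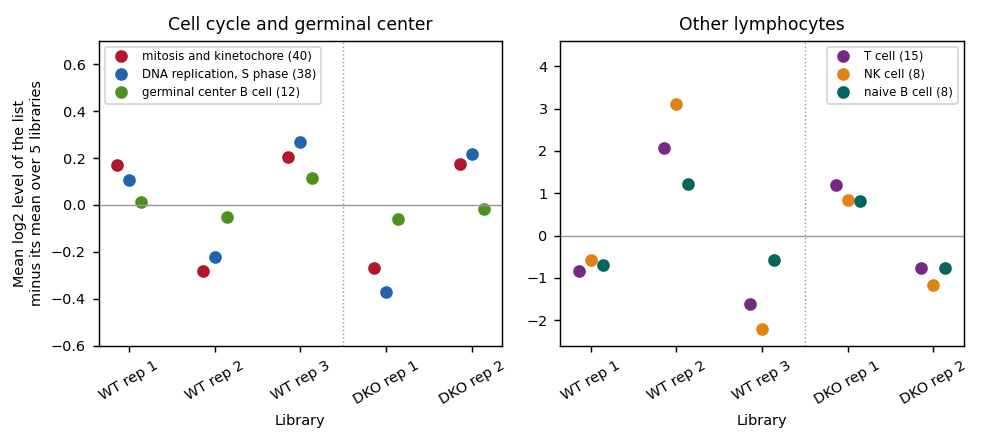
Mean log2 level of gene lists in each library minus the mean of the list over the 5 libraries; the dotted line separates WT from DKO. On the left, mitosis genes (red) and S phase genes (blue) were below 0 in WT replicate 2 and DKO replicate 1. Germinal center B cell markers (green) stayed between −0.06 and 0.12 over all libraries, with −0.05 and −0.06 in these libraries. On the right, markers of T, NK and naive B cells were above 0 in the same libraries (the vertical scales differ).

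With WT replicate 2 and DKO replicate 1 left out, a setting added after seeing the data that leaves 1 DKO library, 20 of 40 members were lower in DKO and the median was −0.00. DKO replicate 2 was above both WT replicates 1 and 3 in 14 of 40 members, against 31.2% of tested genes, and below both in 9 of 40, against 31.9%. The remaining 17 members lay between these WT libraries. DKO replicate 1 was above WT replicate 2 in 18 of 40 members, against 49.9% of tested genes. Each of these comparisons sets single libraries side by side, and WT replicate 2 and DKO replicate 1 differed in lymphocyte markers, with Cd3e at 363 and 163. DNA replication and S phase genes had the same order of libraries, with 33 of 38 lowest in WT replicate 2 within WT and 37 of 38 lower in DKO replicate 1 within DKO. Their mean log2 levels were 10.48, 10.15 and 10.64 in WT, with 10.01 and 10.59 in DKO.

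**Figure D4:**
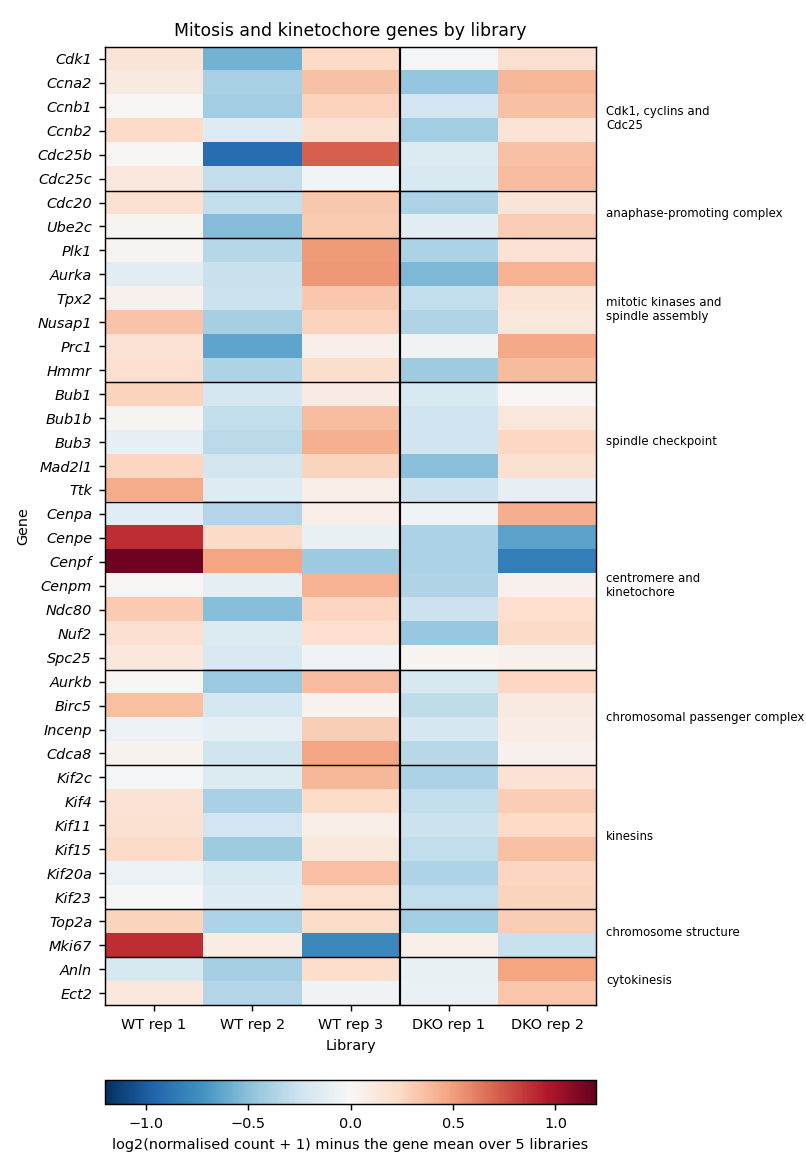
Level of each of the 40 genes (rows, grouped by role) in each of the 5 libraries (columns) as log2(normalised count + 1) minus the mean of the gene over the libraries. Red is above and blue below the mean of the gene. The columns of WT replicate 2 and DKO replicate 1 are blue in most rows, and Cenpe, Cenpf and Mki67 have another pattern.

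Cdk1, the mitotic cyclins and the Cdc25 phosphatases, which remove the inhibitory phosphates from Cdk1, were higher in DKO in 4 of 6 genes with a median of 0.12, and none passed. Ccna2, cyclin A2, measured 5908, 4191 and 7031 normalised counts in WT, against 3981 and 7219 in DKO. Ccnb2, cyclin B2, measured 3119.6, 2389.6 and 3031 in WT, against 2004 and 2984 in DKO. The DKO libraries of Ccna2 lay on either side of the whole WT range and those of Ccnb2 overlapped it from below, with fold changes of −0.06 ± 0.31 (SE) and −0.21 ± 0.24. Cdk1 had 1082, 654 and 1151 in the WT libraries and 961 and 1109 in the DKO libraries. Cdc25b ranged from 465 to 1446 in WT, which enclosed its DKO values of 787 and 1122.

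Of the anaphase-promoting complex genes, Ube2c, its ubiquitin-conjugating enzyme, measured 2971, 2025 and 3618 in WT, against 2663 and 3572 in DKO. Cdc20, the activator that the checkpoint restrains, had 1546, 1116 and 1711 in the WT libraries and 1056 and 1526 in the DKO libraries. Both sets of values overlapped between the genotypes, with fold changes of 0.14 ± 0.27 and −0.18 ± 0.26.

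Kinases and spindle assembly factors were lower in DKO in 5 of 6 genes, with a median of −0.10. Tpx2, which activates Aurora A on spindle microtubules, measured 6806, 5513 and 8244 in WT, against 5372 and 7388 in DKO. Nusap1, a microtubule-bundling protein, had 7493, 4502 and 7189.9 in the WT libraries and 4597 and 6522 in the DKO libraries. Plk1, Aurka and Hmmr had fold changes of −0.17, −0.10 and −0.04. The exception was Prc1, which crosslinks antiparallel microtubules of the central spindle. It measured 3069, 1754 and 2852 in WT, against 2643 and 3731 in DKO, a fold change of 0.34 ± 0.28 (adjusted p = 0.883, limma). It was the highest of the 40 with all 5 libraries, but ran from 0.086 without WT replicate 2 to 0.59 without DKO replicate 1, where Anln was higher at 0.60.

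Of the spindle checkpoint genes 4 of 5 had lower values in DKO, and their median was −0.13. Bub1b, the checkpoint protein BubR1, had 4356, 3476 and 5519.8 in the WT libraries and 3624 and 4691 in the DKO libraries. Bub1 measured 3738, 2700.2 and 3344 in WT, against 2735 and 3173 in DKO. Mad2l1, which with BubR1 and Bub3 sequesters Cdc20, had 3321, 2386 and 3344 in the WT libraries and 1958 and 3154 in the DKO libraries. The kinase gene Ttk measured 2094, 1387 and 1617 in WT, against 1285 and 1441 in DKO, with a fold change of −0.30 ± 0.23 (adjusted p = 0.877, limma). Values of all these genes overlapped between the genotypes, and Bub3 had a fold change of 0.00 ± 0.27.

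Centromere and kinetochore genes held both the lowest and one of the highest fold changes of the set. Cenpe, a kinesin of the outer kinetochore that carries chromosomes to the metaphase plate, had 20028, 12717 and 10178 in the WT libraries and 8343 and 6937 in the DKO libraries. It was the only member whose DKO values all lay below the WT values, as did those of 11% of tested genes, and no member had both DKO values above WT, against 12.5% of tested genes. Its fold change was −0.85 ± 0.29 (SE), with a 95% interval of −1.52 to −0.19 and an adjusted p of 0.823 in limma. Cenpf, a large coiled-coil protein of the outer kinetochore, measured 10171, 6305 and 3363 in WT, against 3489 and 2553 in DKO. Here WT replicate 3 lay between the DKO libraries. The fold change was −1.01 ± 0.40, with an interval of −1.92 to −0.10 and an adjusted p of 0.823 in limma. Neither gene reached an unadjusted p of 0.05 without WT replicate 1 or without DKO replicate 2, and Cenpf also missed it without WT replicate 2. Without WT replicate 1 the fold changes were −0.58 for Cenpe and −0.63 for Cenpf, and without DKO replicate 2 they were −0.72 and −0.78. Without WT replicate 3 they were −1.07 (unadjusted p = 0.00304, adjusted p = 0.896, limma) and −1.42 (unadjusted p = 0.000866, adjusted p = 0.876, limma). With the replicate number as a block the fold changes were the same. There the adjusted p in limma was 0.250 for Cenpe and 0.0152 for Cenpf, and 0.272% of all tested genes passed. Whether those numbers pair the libraries is not known.

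Cenpa, the histone H3 variant that marks centromeres, had 934, 796 and 1074 in the WT libraries and 990.4 and 1377 in the DKO libraries, a fold change of 0.33 ± 0.24 (adjusted p = 0.877, limma) that ran from 0.095 without DKO replicate 2 to 0.57 without DKO replicate 1. Cenpm, of the inner kinetochore, measured 352, 319.9 and 464 in WT, against 269.7 and 360.1 in DKO. Ndc80, Nuf2 and Spc25, subunits of the Ndc80 complex that binds microtubule ends, had fold changes of −0.05, −0.19 and 0.07. Values of these 5 genes overlapped between the genotypes. The other 32 kinetochore and centromere genes of a wider list did not share the direction of Cenpe and Cenpf: 12 were lower and 20 higher, with a median of 0.06 and none at an unadjusted p under 0.05.

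The chromosomal passenger complex corrects faulty attachments through Aurora B. Incenp, its scaffold, had 2722, 2649.6 and 3514 in the WT libraries and 2479 and 3051 in the DKO libraries. Aurkb measured 2771, 2019 and 3542 in WT, against 2404 and 3250.2 in DKO, and Birc5 and Cdca8, survivin and borealin, had fold changes of −0.16 and −0.23. The 4 genes had a median of −0.13, and all overlapped between the genotypes.

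Kinesins had small fold changes, from −0.17 for Kif2c to 0.05 for Kif15, with 4 of 6 lower and a median of −0.02. Kif11, the motor that pushes spindle poles apart, had 10209, 7667 and 9485 in the WT libraries and 7528 and 10638 in the DKO libraries. Kif15, which shares that role, measured 6722, 4279.9 and 6321 in WT, against 4689 and 7359 in DKO. The DKO libraries of Kif11 enclosed the WT range, and those of Kif15 overlapped it.

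Top2a had 37157, 23978 and 36041 in the WT libraries and 23281 and 37915 in the DKO libraries, a fold change of −0.10 ± 0.31. Mki67, which coats mitotic chromosomes, measured 120604, 69174 and 38036 in WT, against 68565 and 54064 in DKO, with a wide spread in WT and a fold change of −0.16 ± 0.45. Of the cytokinesis genes, Anln, a scaffold of the contractile ring, had 1457, 1269 and 1927 in the WT libraries and 1568 and 2323 in the DKO libraries. Ect2, the exchange factor that activates RhoA at the midzone, measured 1640.1, 1177 and 1459.7 in WT, against 1423 and 1889.8 in DKO. Both were higher in DKO replicate 2 than in any WT library, with fold changes of 0.32 ± 0.26 and 0.22 ± 0.23. Without DKO replicate 2 these were 0.038 and 0.011, and without DKO replicate 1 they were 0.60 and 0.42.

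The level of each gene was also set against the mean of all 40 genes in the same library, as a difference of log2 values. By this relative level both DKO libraries lay above all WT libraries for 6 members, Prc1, Cenpa, Anln, Ect2, Cdc25c and Ube2c, or 15% of the set against 9.05% of tested genes. They lay below for 2 members, Cdc20 and Mad2l1, or 5% against 6.34%. These shares are near those of all tested genes, and nothing particular to these members is read from them. When the level of T cell markers entered as a covariate, no member passed, against 0.0227% of tested genes. There Prc1 reached an unadjusted p of 0.0436 with a fold change of 0.41 (adjusted p = 0.546, limma), beside Cenpe and Cenpf, or 7.5% of members against 8.9% of tested genes.

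Cenpe, Cenpf and Mki67 differed from the other 37 genes in how the libraries were ordered. WT replicate 3 minus WT replicate 1 was −0.98 (log2) in Cenpe, −1.60 in Cenpf and −1.66 in Mki67. The other 37 members ranged from −0.37 to 0.71 on this measure. These 3 genes also have the longest annotated coding transcripts of the set, 7910, 11130 and 10061 bases, with Mad2l1 next at 7557. Of all tested genes with a coding transcript of at least 8000 bases, 594 in number, the median of WT replicate 3 minus WT replicate 1 was −0.59, against 0.09 for the 2618 genes under 2000 bases. For the 871 genes from 6000 to 8000 bases, the range that holds Cenpe and Mad2l1, it was −0.27. Mad2l1 itself had a value of 0.01. All these lengths are of the longest annotated coding transcript, and which transcript of a gene was expressed was not measured. The median fold change between the genotypes was 0.25 for genes of at least 8000 bases, 0.09 from 6000 to 8000 bases and −0.11 under 2000 bases. The part of transcript length in the values of Cenpe, Cenpf and Mki67 was not tested. The 37 other genes had a mean log2 level of 11.15, 10.72 and 11.30 in WT and 10.77 and 11.28 in DKO, a difference of −0.03 between the genotypes; the 3 genes were left out after their values were seen.

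In related gene lists of the mitotic machinery no gene passed after adjustment. In DKO, 12 of 15 condensin and cohesin genes had lower values, with a median of −0.12, where 50% of all tested genes had lower values. At an unadjusted p under 0.05 were 2 of the 15, Smc4, a condensin core subunit, and Stag2, a cohesin subunit, both lower in DKO, as were 2.37% of all tested genes. Smc4 measured 28545, 19904 and 20983 in WT, against 16532 and 11996 in DKO (fold change −0.70 ± 0.26, adjusted p = 0.823, limma). Of 24 other spindle and motor genes 12 were lower and 12 higher. Kif20b, a kinesin of late mitosis, had 5144, 3876 and 3541 in the WT libraries and 2589 and 2015 in the DKO libraries, with no overlap and a fold change of −0.86 ± 0.23 (unadjusted p = 0.00481, adjusted p = 0.823, limma). Kif14, a kinesin of cytokinesis, measured 2116, 1660.2 and 1751 in WT, against 2202 and 2881 in DKO. Its values also had no overlap but in the other direction, at 0.46 ± 0.21 (unadjusted p = 0.0609, adjusted p = 0.832, limma). Among all tested genes, both DKO values lay below all WT values in 11% and above them in 12.5%. Kif20b and Kif14 were named for having among the smallest p of the 24.

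Of the regulators of mitotic entry and exit 17 of 27 were lower, with a median of −0.09, and further cytokinesis genes were lower in 3 of 6. The factors that act on CHR and CCAAT promoters, DREAM and MuvB subunits, B-Myb, FoxM1 and NF-Y, were lower in 5 of 14 with a median of 0.06, and Lin37 of MuvB had the smallest p among them at −0.42 ± 0.22. The members with a CHR match had a median fold change of −0.04 (15 of 25 lower) and ranged from −1.01 for Cenpf to 0.34. Those with a promoter but no CHR match had a median of −0.19 (7 of 9 lower) and ranged from −0.85 for Cenpe to 0.16. Of all tested genes 50% were lower. The ranges overlapped, and a difference between these groups was not tested. Of 10 dark zone genes, 6 were lowest in WT replicate 2 within WT, against 37 of 40 members and 35.2% of tested genes. In DKO, 6 were lower in replicate 1 than in replicate 2, against 37 of 40 members and 48.4% of tested genes. The mean log2 levels of the dark zone genes were 12.65, 12.27 and 12.58 in WT and 12.29 and 12.46 in DKO. They too were lowest in WT replicate 2 and DKO replicate 1.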

How the data were processed

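RNA of sorted germinal center B cells from 3 WT and 2 DKO samples was amplified and sequenced, per the labels' protocols. Per the submitters' processing notes, the tools were TopHat2 2.0.4, CASAVA 1.8.2 and Cufflinks 2.0.2, with build mm9. How reads were counted and scaled, with which annotation and strand setting, is information not given in the sources used here. A normalised signal per gene was deposited by the authors. Each library's values above 0 were multiples of 1 step, its value of a single read, to within 0.01 in all but 1 case. The whole reads recovered by that division gave the depth and fed edgeR 4.0.16 and DESeq2 1.42.0.

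For genes with a mean of at least 10, limma 3.58.1 (R 4.3.3) was fitted to log2(value + 1), with a mean-variance trend and genotype as the only term, two-sided, with Benjamini-Hochberg adjustment over all genes tested and a threshold of 0.05. On this scale the change of low genes is understated. The fit had 3 residual degrees of freedom, to which empirical Bayes added 5.92. The script was tested on simulated data. Gene names were matched by symbol to GENCODE M21 for transcript length and to RefSeq GRCm38.p6 for promoters. The members, the gene lists and the tests were chosen with earlier results of these data known. Values in every library are printed for the 2 members of each role with the highest mean, the 8 with the smallest p and the 4 highest in DKO, with Cdk1 and Cdc25b added after their values were seen. Of other lists up to 3 genes with the smallest p could be named. Promoters were taken from the printed members whose promoter held a motif searched. Alternatives were the pseudocount, the minimum value, TMM and quantile scaling, the replicate number as a block, T cell marker level as a covariate, edgeR, DESeq2 and leaving out libraries.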

Additional observations from a re-analysis of the deposited data

How the results depend on the processing

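The pseudocounts of 0.5 and 5, minimum values of 1 and 50, no minimum and quantile scaling changed the sign of no member and the call of none. The number of all genes higher in DKO at an unadjusted p under 0.05 was 489 at the main setting, 765 at a minimum of 1 and 907 with no minimum, where more genes were tested. TMM scaling gave −0.020 for Bub3 and −0.022 for Kif4; edgeR gave −0.016 for Bub3, and so did DESeq2. DESeq2 called 29 genes, none of them a member. When the level of T cell markers was a covariate, 3 genes passed, none of them a member, 485 genes were lower at an unadjusted p under 0.05, and fold changes were 0.024 for Ccna2, 0.038 for Hmmr, 0.029 for Ndc80, 0.027 for Kif11 and 0.017 for Kif23.

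Whether the replicate numbers pair the libraries is not known. Across tested genes, deviations from the group means correlated at 0.005 between the replicates numbered 1 and at −0.28 between those numbered 2. With 2 DKO libraries the deviations of one mirror those of the other, so these correlations cannot decide it. With the replicate number as a block, which leaves WT replicate 3 out of the comparison, 36 genes (0.272%) passed, 1 of them a member, Cenpf at −1.42 (adjusted p = 0.0152, limma). There 270 genes were higher in DKO at an unadjusted p under 0.05 and 15 members were lower, and fold changes were 0.11 for Ccna2, 0.054 for Plk1, 0.14 for Aurka, 0.041 for Tpx2, 0.061 for Hmmr, 0.083 for Bub1b, 0.070 for Ndc80, 0.034 for Incenp, 0.016 for Kif11, 0.068 for Kif20a and 0.065 for Kif23.

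Leaving out libraries, with 1 DKO library left in some fits and its spread taken from the others, gave from 0 to 2 genes past the adjusted threshold, none of them a member. Genes at an unadjusted p under 0.05 numbered from 91 to 736 higher and from 208 to 372 lower, and members from 0 to 2. Members lower in DKO numbered from 7 without DKO replicate 1 to 35 without WT replicate 2, with medians from −0.30 without DKO replicate 2 to 0.20 without DKO replicate 1. The direction of the set therefore rests on which libraries are kept. The difference in mean level ran from −0.30 to 0.14. Fold changes that changed sign in at least 1 of these fits ran as follows. Cdk1 ran from −0.11 to 0.29, Ccna2 from −0.49 to 0.37, Ccnb1 from −0.19 to 0.39, Ccnb2 from −0.50 to 0.078, Cdc25b from −0.27 to 0.55 and Cdc25c from −0.12 to 0.43. Cdc20 ran from −0.44 to 0.088, Ube2c from −0.088 to 0.36, Plk1 from −0.44 to 0.11, Aurka from −0.58 to 0.38, Tpx2 from −0.33 to 0.13 and Nusap1 from −0.44 to 0.065. Hmmr ran from −0.44 to 0.37, Bub1b from −0.27 to 0.10, Bub3 from −0.24 to 0.25, Mad2l1 from −0.61 to 0.081, Ndc80 from −0.31 to 0.18 and Nuf2 from −0.54 to 0.15. Spc25 ran from −0.0013 to 0.15, Aurkb from −0.17 to 0.26, Birc5 from −0.37 to 0.040, Incenp from −0.24 to 0.055, Kif2c from −0.45 to 0.10 and Kif4 from −0.29 to 0.29. Kif11 ran from −0.27 to 0.23, Kif15 from −0.27 to 0.38, Kif20a from −0.41 to 0.22, Kif23 from −0.31 to 0.26, Top2a from −0.45 to 0.25 and Mki67 from −0.59 to 0.25. The cause of these shifts was not tested.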
